A study of Mus musculus with 18 samples.

Results

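Hox genes were examined in the ovaries of F1 female mice by taking every symbol of the form Hoxa, Hoxb, Hoxc or Hoxd followed by a number. The rule found 38 of the 30172 gene symbols measured, with 11 in the HoxA cluster, 10 in HoxB, 8 in HoxC and 9 in HoxD. Hoxc12 was not analysed here. RNA of whole ovaries of wild-type C57BL/6J females was sequenced at postnatal day 3, 7 or 21 (Pd3, Pd7, Pd21). Dams of the F1-HHcy pups ate a diet with 3% methionine (high-methionine diet), by the labels from 4 weeks before mating until the end of nursing, and dams of the F1-Control pups ate a normal diet. The methods text of the paper gives the feeding before mating differently from the labels. Sires ate the normal diet, and the pups themselves were not treated. Each of the 6 groups had 3 libraries, 18 in all, and by the labels Pd21 is a batch of its own, batch 2, while the younger ovaries form batch 1. It is not stated whether a library held the ovaries of 1 pup or of several, so p-values measure only the spread between these libraries. The diet was given to the dams, and it is not stated whether the libraries of a group came from different litters. Effects of diet and of litter therefore cannot be told apart here.

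Hox genes encode homeodomain transcription factors that give cells their position along the body axis, and mammals keep them in 4 clusters. Within a cluster the genes lie in the order of their paralogue number, low numbers are used towards the head and high numbers towards the tail, and HOX proteins bind DNA together with PBX, MEIS and PKNOX partners. In the female tract, the high-numbered HoxA genes are known for patterning the oviduct, uterus and vagina along the Müllerian duct. In the GRCm38.p6 annotation the HoxA genes lay on the minus strand of chromosome 6, and HoxB spanned chr11:96194316-96368254, HoxC chr15:102921131-103036856 and HoxD chr2:74668225-74765142, the last 3 on the plus strand.

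Levels are FPKM, fragments scaled to the length of the gene and the total of the library, and so may be set side by side between genes. Depth was 33630641 to 39399281 fragments per library. Foxl2 of granulosa cells (45.7 to 195 FPKM) and Zp3 of growing oocytes (130 to 689 FPKM) marked the labelled tissue in all 18 libraries. Of the oviduct genes, Foxj1 of multiciliated cells lay between 20.4 and 99.1 FPKM in the F1-Control libraries of Pd21 and at or below 2.13 FPKM in the other 15. Statistics were computed for members that reached 1 FPKM in 3 or more of the 18 libraries, on log2(FPKM + 1) with limma. A gene was called where its unadjusted p was under 0.05 and its log2 fold change larger than 0.58 in either direction. The Benjamini-Hochberg adjusted p over all genes tested is given beside it. For any single gene, the smallest p that a 2-sided exact permutation test allows with groups of 3 is 0.1.

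The ovary used the middle of the clusters. All 22 members that passed the filter had paralogue numbers 2 to 10: 4 of HoxA, 7 of HoxB, 6 of HoxC and 5 of HoxD. None of the 8 members of paralogue groups 11, 12 and 13 reached 1 FPKM in any library, and the highest value among them was 0.264 FPKM for Hoxc13. Hoxb1 was listed at 0 in 16 libraries and Hoxb13 in 17, where 1 fragment in all was found. The high-numbered HoxA genes Hoxa10, Hoxa11 and Hoxa13 stayed at or below 0.684, 0.0783 and 0.233 FPKM. Each had its highest value in the same library, F1-Control Pd21 replicate 3. Closest to the filter on the inside were Hoxa2, Hoxb4 and Hoxb5, each with 3 libraries at 1 FPKM or more. Closest on the outside were Hoxa6, Hoxa9 and Hoxb8, each with 1 such library, the highest values being 1.35, 1.02 and 3.23 FPKM. The 3 libraries through which Hoxb5 passed were all F1-Control, so its lower level in F1-HHcy is in part set by the filter.

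**Figure D1:**
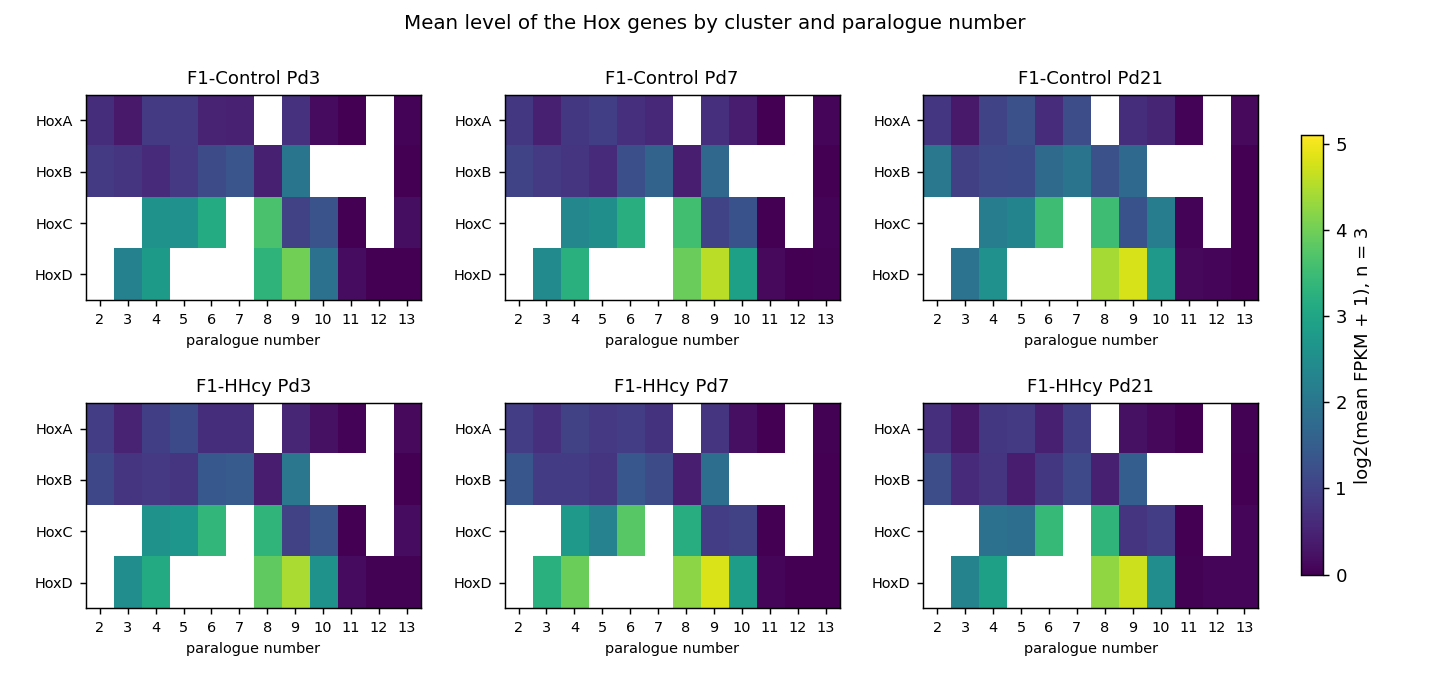
Mean level of each Hox gene in the 6 groups, as log2(mean FPKM + 1) over n = 3 libraries, with clusters in rows and paralogue numbers 2 to 13 in columns; white fields have no measured gene. Signal lies between paralogue numbers 2 and 10, is brightest for Hoxd9 and Hoxd8, and is close to 0 in groups 11, 12 and 13.

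Hoxd9 was the most abundant member (mean over the 18 libraries 22.9 FPKM), followed by its neighbour Hoxd8 (15.4 FPKM). Hoxc8 (9.81 FPKM) and Hoxc6 (9.73 FPKM) came next, with libraries from 6.77 to 13.5 and from 5.66 to 16.0 FPKM over the 6 groups. This order is that of the means over 18 libraries, and it changed between groups. In F1-Control at Pd3, Hoxc8 (10.7 to 12.3 FPKM) lay above both Hoxd8 (8.09 to 9.98 FPKM) and Hoxc6 (7.37 to 8.58 FPKM), while in F1-HHcy at Pd7 Hoxc6 (11.9 to 13.2 FPKM) lay above Hoxc8 (6.77 to 8.97 FPKM). Hoxd4 (7.97 FPKM), Hoxd10 (5.15 FPKM), Hoxd3 (4.65 FPKM), Hoxc4 (4.35 FPKM) and Hoxc5 (4.26 FPKM) formed a middle range whose libraries overlapped. The leading HoxB members were Hoxb9 (2.53 FPKM) and Hoxb7 (1.78 FPKM), and every HoxA member had a mean under 1 FPKM, led by Hoxa5 (0.997 FPKM) and Hoxa4 (0.892 FPKM). Among paralogue groups, the summed means were highest for group 9 (26.98 FPKM) and group 8 (25.8 FPKM). Group 7, which has no HoxC or HoxD member, summed to 2.51 FPKM.

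Together the HoxD genes made up 44.3% to 63.2% of the summed Hox FPKM of a library, the HoxC genes 24.5% to 40.9%, the HoxB genes 5.71% to 21.1% and the HoxA genes 3.51% to 7.71%. The sum over all members was 81.8 ± 7.71 FPKM (SD, n = 3) in F1-Control and 99.3 ± 13.1 FPKM in F1-HHcy at Pd3, 101 ± 11.5 and 122 ± 7.64 FPKM at Pd7, and 116 ± 9.39 and 95.4 ± 39.6 FPKM at Pd21. The groups overlapped at Pd3 and at Pd21 and did not at Pd7, where the F1-Control libraries ended at 113 FPKM and the F1-HHcy libraries began at 115 FPKM. The HoxD share of the sum was 44.3% to 45.2% in F1-Control and 48.5% to 55.1% in F1-HHcy at Pd3, and 46.9% to 54.8% against 58.3% to 61.9% at Pd21. At Pd7 it was 53.3%, 63.2% and 51.7% in F1-Control against 60.3% to 61.1% in F1-HHcy, so that the overlap came from F1-Control replicate 2.

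**Figure D2:**
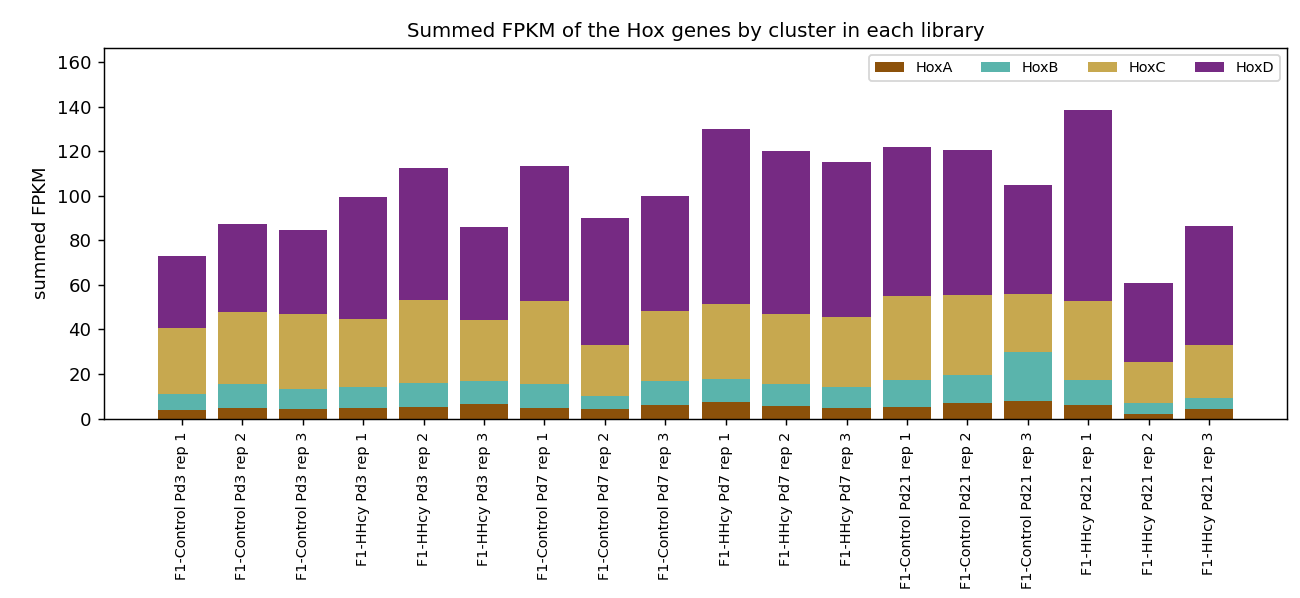
Summed FPKM of the Hox genes in each of the 18 libraries, stacked by cluster; each bar is 1 library. HoxD and HoxC make up most of every bar, F1-HHcy Pd21 replicate 2 has the lowest sum (61.0 FPKM) and F1-HHcy Pd21 replicate 1 the highest (139 FPKM).

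Some libraries stood apart. Within its group, F1-Control Pd7 replicate 2 was lowest for 14 of the 22 members, including all 7 of HoxB, and highest for Hoxc9, Hoxd8, Hoxd9 and Hoxd10. Of the F1-HHcy libraries of Pd3, replicate 2 was highest for 16 members and replicate 1 lowest for 12. Of the F1-HHcy libraries of Pd21, replicate 1 was highest for 18 members and replicate 2 lowest for 17. F1-Control Pd21 replicate 3 was highest of its group for all 7 HoxB members and lowest for 10 others. Calls that were lost without 1 library are named beside the gene.

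The HoxD genes held the largest share of the Hox sum in every library, so the promoters of the 5 that passed the filter are shown. These RefSeq promoters run from 250 bases before to 50 after the start on the plus strand of GRCm38.p6. CG dinucleotides, the sites of DNA methylation in mammals, are in capitals. Promoters were found for 22 of the 38 members, 24 promoters in all.
Hoxd10, chr2:74691641-74691940: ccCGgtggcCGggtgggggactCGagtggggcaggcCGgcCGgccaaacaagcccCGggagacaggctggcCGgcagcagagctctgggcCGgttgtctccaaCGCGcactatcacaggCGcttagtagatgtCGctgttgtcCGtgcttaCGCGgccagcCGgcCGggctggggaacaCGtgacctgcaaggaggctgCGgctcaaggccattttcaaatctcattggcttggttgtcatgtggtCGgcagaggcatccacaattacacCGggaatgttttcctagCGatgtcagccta
Hoxd9, chr2:74697513-74697812: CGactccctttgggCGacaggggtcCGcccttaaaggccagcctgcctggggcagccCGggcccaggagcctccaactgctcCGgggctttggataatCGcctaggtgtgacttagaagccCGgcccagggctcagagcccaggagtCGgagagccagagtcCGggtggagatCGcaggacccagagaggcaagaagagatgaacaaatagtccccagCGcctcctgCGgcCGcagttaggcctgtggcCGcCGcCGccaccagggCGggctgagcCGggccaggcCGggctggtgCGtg
Hoxd8, chr2:74704365-74704664: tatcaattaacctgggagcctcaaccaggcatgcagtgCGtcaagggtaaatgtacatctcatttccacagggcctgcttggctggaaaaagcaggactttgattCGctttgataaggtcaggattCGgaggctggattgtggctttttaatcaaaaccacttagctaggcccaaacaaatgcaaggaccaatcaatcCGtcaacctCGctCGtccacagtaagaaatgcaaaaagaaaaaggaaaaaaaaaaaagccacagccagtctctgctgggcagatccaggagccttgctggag
Hoxd4, chr2:74721728-74722027: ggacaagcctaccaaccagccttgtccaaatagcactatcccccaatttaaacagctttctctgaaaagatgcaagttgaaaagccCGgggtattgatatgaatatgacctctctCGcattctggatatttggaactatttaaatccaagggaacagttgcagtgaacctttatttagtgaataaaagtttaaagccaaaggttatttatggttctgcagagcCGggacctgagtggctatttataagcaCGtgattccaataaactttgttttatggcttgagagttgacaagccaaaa
Hoxd3, chr2:74711743-74712042: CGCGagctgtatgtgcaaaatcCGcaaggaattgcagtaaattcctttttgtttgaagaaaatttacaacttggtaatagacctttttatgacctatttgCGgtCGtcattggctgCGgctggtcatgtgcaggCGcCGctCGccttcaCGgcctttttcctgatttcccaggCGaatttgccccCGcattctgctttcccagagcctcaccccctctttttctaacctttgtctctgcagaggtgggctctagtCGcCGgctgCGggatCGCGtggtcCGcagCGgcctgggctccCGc

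These 5 promoters fell into CG-rich and CG-poor ones. Hoxd10 had 22 CG dinucleotides, Hoxd9 20 and Hoxd3 20, while Hoxd8 had 6 and Hoxd4 had 4. The GC content ran in a similar order, from 68.3% for Hoxd9 through 62.7% for Hoxd10, 54.0% for Hoxd3 and 46.7% for Hoxd8 to 39.7% for Hoxd4. Over the 24 Hox promoters the median was 14.5 CG dinucleotides and 57.7% GC, against 7 and 52.7% over all 32851 promoters of the same length. The letters TATAAA, searched on both strands, occurred in 4 Hox promoters (Hoxd4, Hoxd13, Hoxa10 and Hoxb8) and in 13.6% of all promoters. TGATTNAT, a form of the site of HOX with PBX, occurred in those of Hoxa2 and Hoxd11 (3.22% of all), and TGACAG, a site of MEIS and PKNOX, in those of Hoxa2 and Hoxa3 (19.2% of all). A direct repeat of AGGTCA, the half-site of retinoic acid receptors, with 5 free bases between the copies was in none of the 24 (0.0091% of all). No methylation was measured here.

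At Pd3, 1 of the 22 members was called between the diets, Hoxd10, known from the lumbar spinal cord and the limb, which was higher in F1-HHcy. Over all 14602 genes tested, 9.76% were called in either direction and 5.37% as higher, so the share of members is near the background. No member had an adjusted p under 0.05 by limma, while 2.16% of all genes had one together with the fold of the call. An unadjusted p under 0.05, at any fold, was found for 3 members and for 22.2% of all genes. Hoxd10 measured 2.19, 3.59 and 2.59 FPKM in the F1-Control libraries and 4.80, 5.09 and 5.27 FPKM in the F1-HHcy libraries. The groups did not overlap, and the log2 fold change was 0.69 (SE 0.16, limma adjusted p = 0.0717). Without F1-Control Pd3 replicate 1, the lowest library, the log2 fold change was 0.58 and the call was lost.

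Its neighbour Hoxd9, the most abundant member, had 13.2, 17.96 and 14.1 FPKM in F1-Control and 20.1, 21.3 and 21.3 FPKM in F1-HHcy at Pd3. These groups did not overlap either, but the log2 fold change of 0.45 (SE 0.13, limma adjusted p = 0.109) lay below the fold threshold. Hoxd8 measured 8.09, 8.87 and 9.98 FPKM against 15.6, 15.8 and 8.85 FPKM: 2 of the F1-HHcy libraries lay well above the F1-Control range and replicate 3 within it. Without that replicate Hoxd8 (log2 fold change 0.75) and Hoxd4 were also called, which made 3 members. The log2 fold change of Hoxd8 over all libraries was 0.49 (SE 0.22, limma adjusted p = 0.239).

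All 5 HoxD members had a positive difference at Pd3, with a median log2 fold change of 0.45, against 0.22 for the 4 HoxA, 0.12 for the 7 HoxB and 0.03 for the 6 HoxC members. The median over the 22 members was 0.18, with 17 higher and 5 lower, beside a median of -0.01 over all genes tested, 48% of which were higher. Without F1-HHcy replicate 2 the median was 0.10. Groups did not overlap for 4 members, as Hoxd10, Hoxd9 and Hoxb4 were higher and Hoxc8 lower, a share of the 22 below the 27.9% of all genes with no overlap. Hoxc8, the most abundant HoxC member, had 11.3, 12.3 and 10.7 FPKM in F1-Control and 8.37, 10.2 and 8.75 FPKM in F1-HHcy (log2 fold change -0.30, SE 0.12, limma adjusted p = 0.2). Hoxc6 measured 7.50, 7.37 and 8.58 FPKM against 9.83, 11.6 and 6.94 FPKM, with overlap (log2 fold change 0.22, SE 0.18).

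The leading members of the weaker clusters overlapped between the diets at Pd3. Hoxb9 had 1.87, 4.53 and 2.47 FPKM in F1-Control and 3.33, 2.96 and 2.98 FPKM in F1-HHcy. Hoxb7 had 1.67, 1.72 and 1.18 FPKM against 1.48, 1.87 and 1.87 FPKM. Hoxa5 had 0.938, 0.832 and 0.713 FPKM against 0.823, 1.20 and 1.61 FPKM, and Hoxa4 1.02, 0.819 and 0.650 FPKM against 0.594, 0.782 and 1.44 FPKM. Their log2 fold changes lay between 0.06 and 0.26, each with an SE of 0.15 to 0.24.

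**Figure D3:**
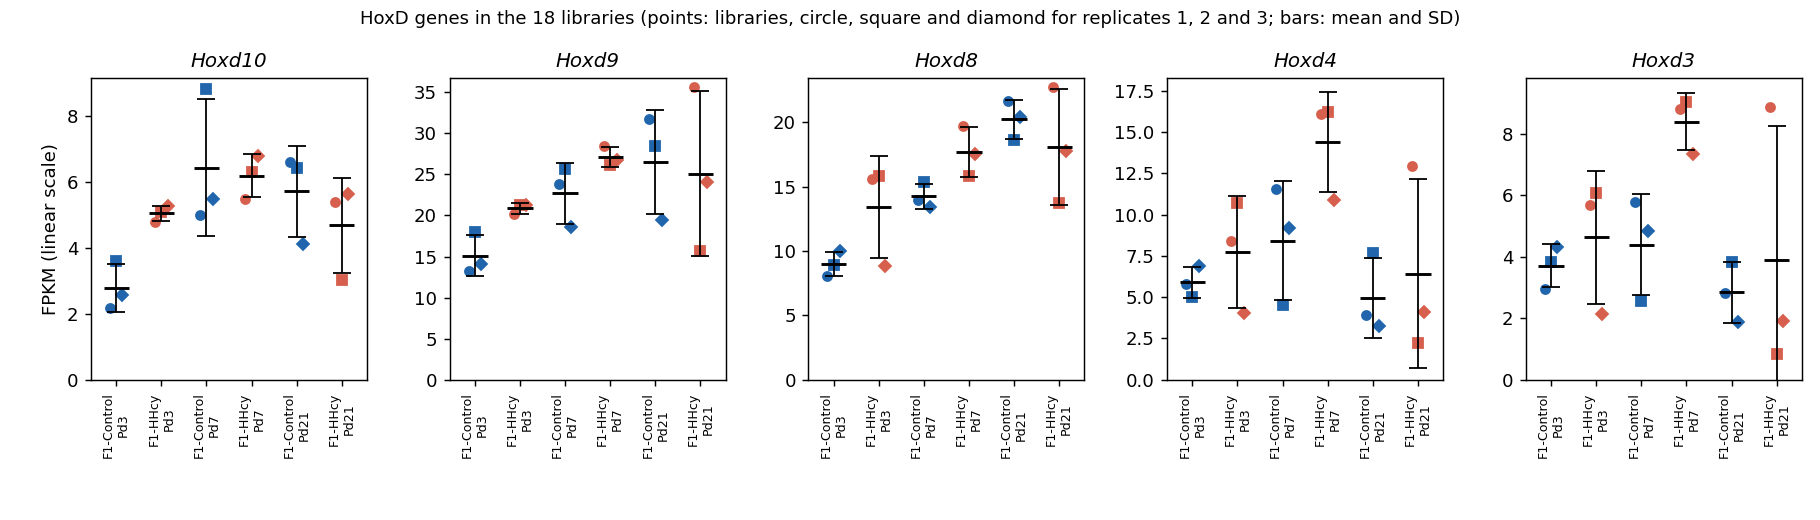
FPKM (linear axes from 0) of the 5 HoxD genes with statistics in the 6 groups; blue points are F1-Control and red points F1-HHcy libraries, with the mean and SD of n = 3 in black, the SD bar of Hoxd3 in F1-HHcy at Pd21 being cut at 0. Hoxd10 separates the diets at Pd3 and Hoxd3 at Pd7, and the F1-HHcy libraries of Pd21 spread widely, from 0.831 to 8.90 FPKM for Hoxd3.

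At Pd7, 3 of the 22 members were called, all higher in F1-HHcy: Hoxd3 and Hoxd4 of the low-numbered end of HoxD, known from the neck vertebrae, and Hoxc6, known from the level of the forelimb and thorax. Over all 14605 genes tested, 16.1% were called in either direction and 8.59% as higher, so this share too is near the background. No member had an adjusted p under 0.05 by limma, while 9.93% of all genes had one together with the fold of the call. An unadjusted p under 0.05, at any fold, was found for 4 members and for 31.1% of all genes. Hoxd3 measured 5.77, 2.56 and 4.84 FPKM in F1-Control and 8.83, 9.05 and 7.34 FPKM in F1-HHcy, without overlap. Its log2 fold change was 0.85 (SE 0.23, limma adjusted p = 0.0507). Hoxc6 had 9.71, 6.06 and 8.69 FPKM against 13.1, 11.9 and 13.2 FPKM, also without overlap (log2 fold change 0.61, SE 0.18, limma adjusted p = 0.0574). Hoxd4 had 11.6, 4.52 and 9.18 FPKM against 16.1, 16.2 and 10.9 FPKM, where 1 F1-HHcy library fell within the F1-Control range (log2 fold change 0.77, SE 0.29, limma adjusted p = 0.113).

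In all 3 genes the lowest value was that of F1-Control Pd7 replicate 2. Without it none of the 22 members passed, with log2 fold changes of 0.58 for Hoxd3, 0.43 for Hoxc6 and 0.42 for Hoxd4. The call of Hoxd4 was also lost without F1-HHcy Pd7 replicate 1 or 2. The annotated span of Hoxd3 (chr2:74711993-74748271) contains that of Hoxd4 (chr2:74721978-74729160), so fragments of one could have been counted for the other, and the pair are not independent measurements.

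Hoxb7 went the other way at Pd7. Its F1-Control libraries had 2.29, 1.93 and 2.08 FPKM and its F1-HHcy libraries 1.15, 1.47 and 1.17 FPKM, without overlap, and its log2 fold change of -0.45 (SE 0.14, limma adjusted p = 0.0698) lay under the fold threshold on the log2(FPKM + 1) scale. With a pseudocount of 0.1 it was -0.69 and passed the call. Groups did not overlap for 5 members in all, Hoxd3, Hoxd8, Hoxd9 and Hoxc6 being higher and Hoxb7 lower, beside 38.8% of all genes.

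The 2 most abundant genes, Hoxd9 and Hoxd8, were not called at Pd7. Hoxd9 had 23.8, 25.7 and 18.6 FPKM against 28.5, 26.1 and 26.8 FPKM (log2 fold change 0.26, SE 0.15, limma adjusted p = 0.26), and Hoxd8 13.98, 15.3 and 13.4 FPKM against 19.7, 15.8 and 17.5 FPKM (log2 fold change 0.29, SE 0.14, limma adjusted p = 0.182). Hoxd10, the member called at Pd3, overlapped, with 5.02, 8.83 and 5.49 FPKM against 5.50, 6.29 and 6.79 FPKM (log2 fold change -0.02, SE 0.20). Hoxc8 had 13.5, 8.06 and 10.97 FPKM against 8.97, 6.77 and 8.31 FPKM (log2 fold change -0.37, SE 0.19, limma adjusted p = 0.219). The median over the members was 0.17, with 15 higher and 7 lower, and -0.01 over all genes, of which 49.3% were higher. Without F1-Control replicate 2 the median over the members was 0.05, with 11 lower. For HoxC the median was -0.21, with 4 of 6 members lower.

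Hoxb9 overlapped at Pd7, with 2.77, 0.995 and 3.15 FPKM in F1-Control and 2.52, 2.31 and 2.96 FPKM in F1-HHcy. Hoxa5 measured 0.955, 0.934 and 0.874 FPKM against 1.08, 0.745 and 0.561 FPKM, and Hoxa4 0.493, 0.849 and 0.963 FPKM against 1.42, 0.679 and 0.827 FPKM. None of the 4 HoxA members was called on any day.

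At Pd21, 5 of the 22 members were called, all lower in F1-HHcy: Hoxb2, Hoxb5, Hoxb6 and Hoxb7, and Hoxc10. Over all 14600 genes tested, 4.94% were called in either direction and 4.86% as lower, so the members' share was above the background. That share counts Hoxb5, which passed the filter only through F1-Control libraries, so it is in part set by the filter. None of the members had an adjusted p under 0.05 by limma, while 2.06% of all genes had one together with the fold of the call. An unadjusted p under 0.05 was found for 6 members and for 6.84% of all genes. All 7 HoxB members with statistics were lower, with a median log2 fold change of -0.73, and 21 of the 22 members were lower, with a median of -0.31 beside -0.01 over all genes, of which 47.7% were higher. Without F1-HHcy replicate 2, 17 were lower with a median of -0.16, and without F1-HHcy replicate 1, 22 were lower with a median of -0.58.

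Hoxb7 had 2.697, 1.84 and 4.09 FPKM in F1-Control and 1.38, 1.19 and 0.983 FPKM in F1-HHcy at Pd21. The groups did not overlap, and the log2 fold change was -0.79 (SE 0.23, limma adjusted p = 0.239). Hoxb6 measured 1.85, 1.52 and 3.86 FPKM against 1.19, 0.612 and 0.488 FPKM (log2 fold change -0.91, SE 0.27, limma adjusted p = 0.271). The F1-HHcy range again lay below the F1-Control range.

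Hoxb2, known from the hindbrain, measured 2.84, 2.30 and 4.15 FPKM in F1-Control and 2.12, 0.841 and 0.955 FPKM in F1-HHcy, without overlap (log2 fold change -0.85, SE 0.26, limma adjusted p = 0.282). Hoxb5 had 0.650, 1.402 and 1.59 FPKM against 0.673, 0.109 and 0.214 FPKM, where 1 F1-HHcy library lay just above the lowest F1-Control library (log2 fold change -0.73, SE 0.23, limma adjusted p = 0.308). F1-Control Pd21 replicate 3 had the highest value of all 18 libraries in each of these 4 genes. Without it Hoxb2, Hoxb5 and Hoxb6 were still called, and Hoxb7 was not, at a log2 fold change of -0.57. Hoxb5 stayed in that fit because the filter was kept over all 18 libraries. The library left out is 1 of the 3 through which Hoxb5 passed, so this call is in part set by the filter. The same library held 3.23 FPKM of Hoxb8, which lies between Hoxb7 and Hoxb9 and stayed at or below 0.651 FPKM in the other 17.

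Hoxc10, a lumbar-level gene, had 6.83, 2.17 and 1.24 FPKM in F1-Control and 0.464, 0.732 and 1.52 FPKM in F1-HHcy, with overlap (log2 fold change -1.04, SE 0.44, limma adjusted p = 0.678). Without F1-Control replicate 1, which holds the high value, the log2 fold change was -0.52 and the call was lost, as it was without F1-HHcy replicate 1 or 2. Hoxc9 next to it was lower without overlap and under the fold threshold, with 1.84, 1.495 and 1.02 FPKM against 0.404, 0.689 and 0.989 FPKM (log2 fold change -0.53, SE 0.19, limma adjusted p = 0.495). In all, groups did not overlap for 4 members, each lower, beside 10.6% of all genes in either direction.

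The abundant members overlapped between the diets at Pd21. Hoxd9 measured 31.7, 28.4 and 19.5 FPKM in F1-Control and 35.6, 15.6 and 24.0 FPKM in F1-HHcy, Hoxd8 21.6, 18.6 and 20.4 FPKM against 22.7, 13.7 and 17.7 FPKM. Hoxd10 had 6.60, 6.44 and 4.11 FPKM against 5.40, 3.03 and 5.65 FPKM. The F1-HHcy libraries were far apart: Hoxd3 measured 8.90, 0.831 and 1.92 FPKM there and 2.82, 3.85 and 1.87 FPKM in F1-Control, and Hoxd4 12.9, 2.21 and 4.11 FPKM against 3.90, 7.69 and 3.23 FPKM.

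Hoxc6 spread in the same way, with 12.4, 11.8 and 7.39 FPKM in F1-Control and 16.0, 5.66 and 7.45 FPKM in F1-HHcy. Hoxc8 was steadier, with 9.996, 11.6 and 9.60 FPKM against 8.87, 8.37 and 9.88 FPKM. Hoxb9, at the high-numbered end of the HoxB members with statistics, had 1.99, 2.35 and 2.67 FPKM against 3.01, 1.22 and 1.40 FPKM (log2 fold change -0.26, SE 0.24).

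Hoxa5 had 0.890, 1.85 and 1.46 FPKM against 1.21, 0.235 and 1.04 FPKM, and Hoxa4 1.06, 0.996 and 1.18 FPKM against 1.23, 0.525 and 0.530 FPKM. The F1-HHcy replicate 1 was the highest of its group in all of these genes apart from Hoxd10 and Hoxc8. Without it 9 members were called, all lower: Hoxb2, Hoxb4, Hoxb5, Hoxb6, Hoxb7, Hoxc4, Hoxc5, Hoxc6 and Hoxd3. The filter was kept over all 18 libraries in this fit. Hoxb4 passed it in part through the library left out and Hoxb5 only through F1-Control libraries, so both calls are in part set by the filter. The share of all genes called in this fit is not given here. Without F1-HHcy replicate 2 the 4 HoxB genes were called.

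**Figure D4:**
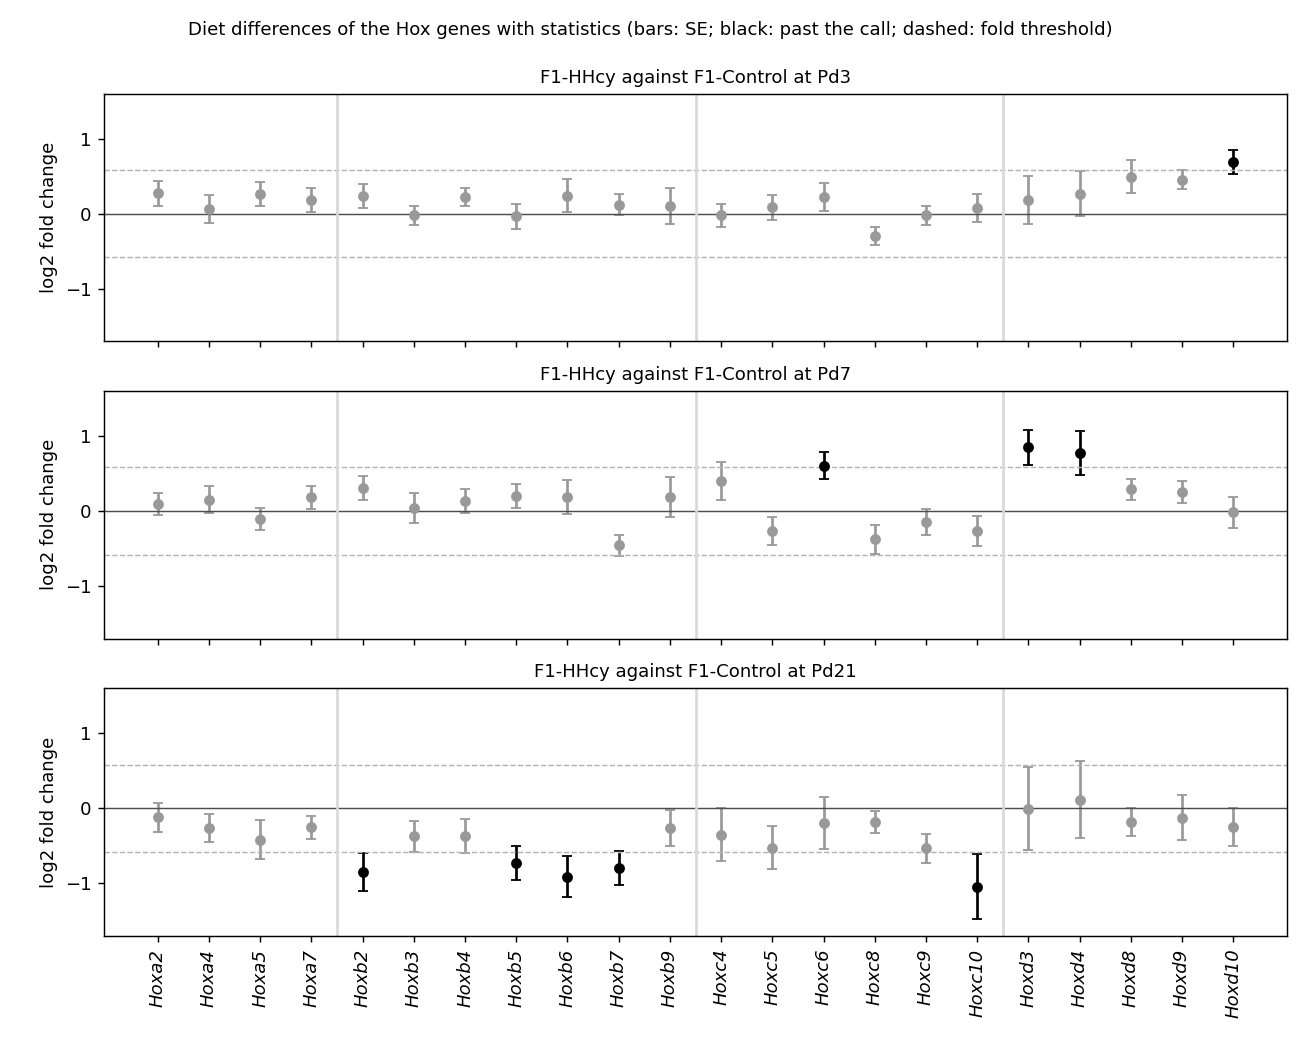
Log2 fold change on log2(FPKM + 1), F1-HHcy against F1-Control, with its SE for the 22 Hox genes with statistics at Pd3, Pd7 and Pd21, ordered by cluster; black points passed the call and dashed lines mark 0.58 in either direction. The called genes lie in HoxD at Pd3, in HoxD and HoxC above the line at Pd7, and in HoxB and HoxC below it at Pd21.

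Markers of the oviduct and ovarian surface moved with the diet at Pd21, beside the lower HoxB genes. All 12 multiciliated markers were called as lower in F1-HHcy, their summed level being 237 to 797 FPKM in F1-Control and 16.3 to 25.5 FPKM in F1-HHcy. Of the 11 oviduct secretory markers 8 were called as lower (284 to 735 FPKM against 153 to 249 FPKM), and of the 10 surface epithelium markers 7 (497 to 638 FPKM against 208 to 416 FPKM). These lists share Wt1 and Msln, so their counts and sums are not independent. The oviduct secretory sum was already 290 to 456 FPKM at Pd3. None of Foxj1, Ovgp1 and Pax8 was at 0 in F1-HHcy at Pd21, where they measured 0.248 to 0.441, 0.37 to 2.10 and 0.415 to 0.757 FPKM. Of the adipocyte list 3 of 5 tested genes were called as lower (30.8 to 285 FPKM against 14.1 to 49.0 FPKM), and of the smooth muscle list 3 of 8 (532 to 1090 FPKM against 407 to 599 FPKM), with sums that overlapped between the diets.

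By library the multiciliated sum was 797, 237 and 414 FPKM in F1-Control at Pd21, highest in replicate 1, whereas the HoxB sum was 11.8, 12.4 and 22.1 FPKM, highest in replicate 3. Among the F1-HHcy libraries the multiciliated sum was 25.5, 16.3 and 21.2 FPKM and the HoxB sum 11.3, 5.03 and 4.95 FPKM. The oviduct secretory sum was highest in F1-Control replicate 3 (735 FPKM). At Pd3 and Pd7 the multiciliated sum was 17.9 to 30.4 FPKM in all 12 libraries, and the HoxB sum 5.80 to 11.1 FPKM. The part of these cells in the Hox differences was not tested, and in whole ovaries fewer cells of a type and less RNA per cell cannot be told apart. How much oviduct tissue each sample held was not tested either.

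**Figure D5:**
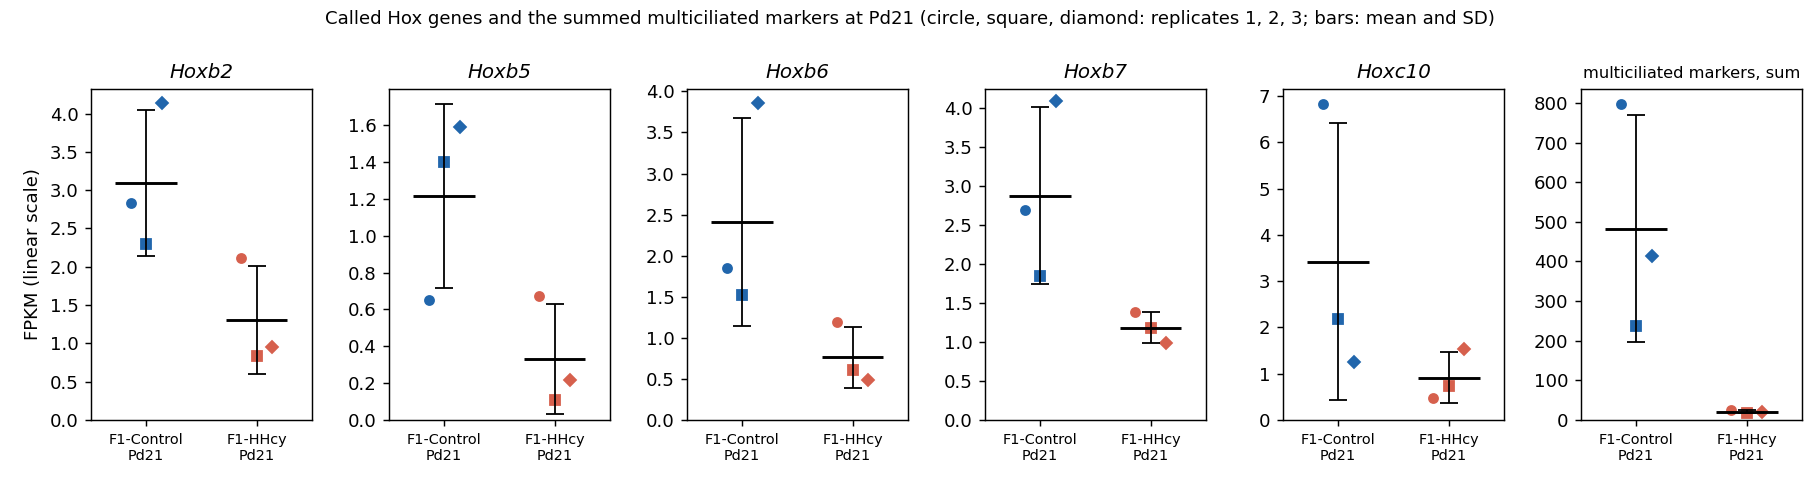
FPKM (linear axes from 0) at Pd21 of the 5 Hox genes called between the diets, and the summed FPKM of the 12 multiciliated markers; points are libraries, with the mean and SD of n = 3. The F1-HHcy libraries lie below the F1-Control libraries for Hoxb2, Hoxb6, Hoxb7 and the marker sum (16.3 to 25.5 against 237 to 797 FPKM) and overlap for Hoxb5 and Hoxc10.

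Other cell markers moved beside the HoxD and HoxC differences of the earlier days. At Pd3, 8 of 10 stroma markers were called as higher in F1-HHcy (summed level 1730 to 2276 FPKM against 1155 to 1415 FPKM), as were 6 of 10 granulosa (296 to 563 FPKM against 274 to 278 FPKM), 6 of 11 oocyte, 4 of 7 endothelial, 2 of 8 theca, 2 of 8 smooth muscle and 2 of 5 adipocyte markers. In the opposite direction, all 7 erythroid markers (784 to 1108 FPKM against 3941 to 11288 FPKM), 3 of 10 surface epithelium, 2 oocyte and 1 granulosa marker were called as lower. F1-HHcy Pd3 replicate 3, in which Hoxd3, Hoxd4 and Hoxd8 were lowest of their group, also had the lowest sums of its group for stroma (1730 FPKM), theca (101 against 388 and 737 FPKM) and smooth muscle markers (74.3 against 309 and 406 FPKM). This library was lowest of its group for the granulosa, oocyte, endothelial, adipocyte and erythroid sums as well. It was highest for the oviduct secretory and multiciliated sums.

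At Pd7, 7 of 8 theca markers were called as higher in F1-HHcy (1194 to 1255 FPKM against 251 to 485 FPKM), with 5 of 10 granulosa, 2 stroma, 2 smooth muscle, 2 oocyte, 2 adipocyte, 1 endothelial and 1 multiciliated marker. Called as lower were 5 of 10 surface epithelium (323 to 565 FPKM against 645 to 1077 FPKM), 7 of 11 oocyte, 5 of 7 erythroid and 4 of 11 oviduct secretory markers, and 1 each of the granulosa, stroma, immune and multiciliated lists. Markers of kidney and adrenal, organs close to the ovary, summed to at most 3.63 FPKM in any library. The part of any of these cell types in the HoxD and HoxC differences was not tested.

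Between Pd3 and Pd7 within F1-Control, Hoxd8 and Hoxd10 rose, 2 of the 22 members. Over all 14600 genes tested, 14.3% were called in either direction and 7.16% as higher. An adjusted p under 0.05 together with the fold of the call was found for 10.9%. This comparison and those of the diets share the F1-Control libraries already listed. From 8.98 ± 0.951 FPKM (SD, n = 3) at Pd3, Hoxd8 went to 14.2 ± 0.996 FPKM at Pd7 (log2 fold change 0.61, SE 0.13, limma adjusted p = 0.0205). Hoxd10 went from 2.79 ± 0.723 to 6.45 ± 2.08 FPKM (log2 fold change 0.96, SE 0.23, limma adjusted p = 0.0291). The days did not overlap in either gene. Leaving out 1 library at a time, Hoxd10 was called each time, while Hoxd8 fell under the fold threshold without F1-Control Pd3 replicate 1 (0.55) and without F1-Control Pd7 replicate 2 (0.56).

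Markers of most ovarian cell types moved between the same days in F1-Control. Called as higher at Pd7 were all 8 smooth muscle markers (379 to 667 FPKM against 106 to 153 FPKM at Pd3), 7 of 10 stroma (2137 to 2492 against 1155 to 1415 FPKM), 6 of 10 granulosa (284 to 584 FPKM against 274 to 278 FPKM), 6 of 11 oocyte (1424 to 2295 against 717 to 954 FPKM), 5 of 7 endothelial, 4 of 8 theca, 4 of 5 adipocyte, 2 of 4 immune and 1 of 11 oviduct secretory markers. As lower were called all 7 erythroid markers, 2 each of the granulosa, oocyte and oviduct secretory lists and 1 of 10 surface epithelium markers. Foxl2 and Zp3 were above 0 in all of these libraries. The part of these cell types in the differences of Hoxd8 and Hoxd10 was not tested.

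Of the next members by p, Hoxd9 went from 15.1 ± 2.52 to 22.7 ± 3.67 FPKM without overlap and just missed the fold threshold (log2 fold change 0.56, SE 0.16, limma adjusted p = 0.0569). Hoxb7 was at 1.52 ± 0.296 and 2.10 ± 0.181 FPKM (log2 fold change 0.30, SE 0.14, limma adjusted p = 0.192) and Hoxb2 at 0.811 ± 0.116 and 1.08 ± 0.231 FPKM (log2 fold change 0.19, SE 0.13). The 5 HoxD members were all higher at Pd7, with a median of 0.56, against a median of 0.07 over the 22 members and -0.05 over all genes, of which 44.1% were higher. In HoxA, HoxB and HoxC the medians were 0.09, 0.07 and -0.04, and no member was called.

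Within F1-HHcy, Hoxd4 and Hoxd3 were called as higher at Pd7 than at Pd3, 2 of 22 members beside 11.1% of all 14605 genes in either direction and 5.55% as higher. Hoxd4 was at 7.73 ± 3.39 and 14.4 ± 3.04 FPKM (log2 fold change 0.88, SE 0.32, limma adjusted p = 0.169), and Hoxd3 at 4.64 ± 2.17 and 8.40 ± 0.931 FPKM (log2 fold change 0.82, SE 0.31, limma adjusted p = 0.176). By limma no gene of the whole table had an adjusted p under 0.05 with this fold here (0%), and 3408 had an unadjusted p under 0.05, 23.3%. All 5 HoxD members were higher at Pd7, beside 45.6% of all genes. None of the members was called without F1-HHcy Pd3 replicate 3, without F1-HHcy Pd7 replicate 1 or without F1-HHcy Pd7 replicate 2. Hoxd10 was at 5.05 ± 0.236 and 6.19 ± 0.649 FPKM (log2 fold change 0.25, SE 0.12, limma adjusted p = 0.27) and Hoxd8 at 13.4 ± 3.95 and 17.7 ± 1.93 FPKM (log2 fold change 0.41, SE 0.22, limma adjusted p = 0.301).

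In F1-HHcy, too, markers moved between these days. Called as higher at Pd7 were 6 of 8 theca (1194 to 1255 FPKM against 101 to 737 FPKM at Pd3), 5 of 8 smooth muscle (521 to 659 FPKM against 74.3 to 406 FPKM), 3 of 5 adipocyte, 2 granulosa, and 1 each of the oocyte, stroma, endothelial and multiciliated markers. As lower were called 6 of 11 oocyte, 5 of 7 erythroid, 4 of 11 oviduct secretory, 3 of 10 surface epithelium and 1 of 10 granulosa markers. Their part in the differences of Hoxd3 and Hoxd4 was not tested.

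Levels at Pd21 are set beside those of Pd7 without a test, because age and batch cannot be told apart there. In F1-Control, 4 members were higher at Pd21 without overlap: Hoxa4, Hoxa7, Hoxb2 and Hoxd8, beside 23.9% of the 14607 genes with statistics, and 0 members were lower, beside 17.1%. Hoxb2 was 2.87 times as high at Pd21 and Hoxa7 2.71 times. Hoxa7 passed the filter through 4 libraries that were all of Pd21, 3 of F1-Control and 1 of F1-HHcy, so its ratio is in part set by the filter. The same holds for Hoxb4, which passed through 3 libraries, all of Pd21. In F1-Control the median ratio over the 22 members was 1.32, and no such median was computed over all genes. In F1-HHcy no member was higher without overlap, beside 17.7% of all genes, and 1 was lower, beside 18.5%. This was Hoxb6 (0.762 ± 0.373 FPKM at Pd21, 1.62 ± 0.182 FPKM at Pd7), and the median ratio was 0.768.

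Whether the diet difference changed with the day was tested in 1 model of all 18 libraries, which uses the same libraries as the comparisons above. Between Pd3 and Pd7 the difference changed by the call for Hoxd10 alone of the 22 members (change in log2 fold change -0.71, SE 0.31, limma adjusted p = 0.337). Of all 14607 genes, 10% were called in either direction and 5.28% towards lower. An adjusted p under 0.05 together with the fold of the call was found for 0.411%. Leaving out 1 library gave 0 to 2 members. It was 0 without F1-Control Pd3 replicate 3, F1-HHcy Pd3 replicate 2 or 3, or F1-HHcy Pd7 replicate 1, and without F1-Control Pd3 replicate 1, F1-Control Pd7 replicate 2 or F1-HHcy Pd7 replicate 2 Hoxb7 was called in place of Hoxd10. Between Pd3 and Pd21 it changed for 9 members, all towards lower in F1-HHcy, beside 13% of all genes in either direction and 9.04% in that one. These were Hoxa5, Hoxb2, Hoxb4, Hoxb5, Hoxb6, Hoxb7, Hoxc10, Hoxd8 and Hoxd10. Hoxb5 passed the filter only through F1-Control libraries and Hoxb4 only through libraries of Pd21, so this count is in part set by the filter. Hoxb2 (change -1.08, SE 0.29, limma adjusted p = 0.0442) and Hoxb7 (change -0.91, SE 0.25, limma adjusted p = 0.0467) had an adjusted p under 0.05, as did 4.59% of all genes past the fold threshold. Leaving out 1 library at a time gave 4 to 12 members, fewest without F1-HHcy Pd3 replicate 2 or F1-HHcy Pd21 replicate 2 (5 without F1-Control Pd3 replicate 1) and most without F1-HHcy Pd21 replicate 1. The shares of all genes called in these leave-outs are not given here.

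Between Pd7 and Pd21 it changed for 3 members, Hoxb2, Hoxb5 and Hoxb6, beside 15.3% of all genes in either direction and 9.72% towards lower. An adjusted p under 0.05 together with the fold of the call was found for 3.87% of all genes. The changes were -1.16 for Hoxb2 (SE 0.29, limma adjusted p = 0.0349), -0.93 for Hoxb5 (SE 0.29, limma adjusted p = 0.0862) and -1.10 for Hoxb6 (SE 0.38, limma adjusted p = 0.127). Hoxb5 passed the filter only through F1-Control libraries, so its change and the count of members are in part set by the filter. Called members numbered 12 without F1-HHcy Pd21 replicate 1, 6 without F1-Control Pd7 replicate 1 and 5 without F1-Control Pd21 replicate 3. The shares of all genes called in these fits are not given here, so the counts cannot be set against a background. Where Pd21 takes part, a change with age cannot be told apart from a change with batch, although each diet difference lies within a batch.

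The partners of HOX proteins were measured in full. All 9 genes of the PBX, MEIS and PKNOX families passed the filter, and their summed level was 74.5 to 113 FPKM. At Pd3, Pknox2 and Meis2 were called as higher and Pbx4 as lower in F1-HHcy. Pknox2 went from 4.03 ± 0.581 to 9.65 ± 0.234 FPKM (log2 fold change 1.09, SE 0.13, limma adjusted p = 0.0226), and against the same F1-Control libraries of Pd3 it rose with age in F1-Control, to 8.67 ± 1.57 FPKM at Pd7 (log2 fold change 0.94, SE 0.17, limma adjusted p = 0.012). At Pd7, Pbx3 fell from 11.2 ± 0.290 FPKM in F1-Control to 7.17 ± 1.17 FPKM in F1-HHcy (log2 fold change -0.59, SE 0.15, limma adjusted p = 0.041), and the call was lost without F1-Control replicate 2 (-0.57) or F1-HHcy replicate 3 (-0.48). At Pd21, Meis1 was at 12.7 ± 4.49 and 6.43 ± 2.10 FPKM (log2 fold change -0.88, SE 0.28, limma adjusted p = 0.341), the only one of the 9 called.

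Chromatin regulators keep Hox clusters active (Trithorax group) or silent (Polycomb group). None of the 10 Trithorax genes and none of the 19 Polycomb genes was called by limma at Pd3. At Pd7, Kmt2d, Kmt2a and Kmt2b, which methylate histone H3 at active genes, were called as higher in F1-HHcy, and of the Polycomb list Phc3 was. Kmt2a measured 7.72, 2.06 and 6.39 FPKM in F1-Control and 11.2, 10.9 and 8.92 FPKM in F1-HHcy (log2 fold change 0.96, SE 0.34, limma adjusted p = 0.0996), the lowest being F1-Control replicate 2. Without that library the calls of Kmt2a (0.49), Kmt2b (0.32) and Phc3 (0.38) were lost, and Kmt2d was still called (0.65). At Pd21, Cbx6 of the Polycomb list was called as lower (log2 fold change -0.65, SE 0.17, limma adjusted p = 0.181) and no Trithorax gene was.

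Retinoic acid is a classical inducer of low-numbered Hox genes, and 12 of 15 genes of its synthesis, binding and receptors were tested. At Pd3, Aldh1a1, an enzyme that makes retinoic acid, fell from 257 ± 16.0 to 143 ± 21.5 FPKM (log2 fold change -0.86, SE 0.13, limma adjusted p = 0.0318), Crabp1 was called as lower and Crabp2 as higher. At Pd7, Aldh1a2 of the same enzyme family fell from 128 ± 18.8 to 48.5 ± 11.8 FPKM (log2 fold change -1.40, SE 0.20, limma adjusted p = 0.00666), and the binding protein Crabp1 from 42.6 ± 21.9 to 7.18 ± 2.32 FPKM (log2 fold change -2.30, SE 0.39, limma adjusted p = 0.0111). Rdh10 and Rarb were also called as lower at Pd7 and Crabp2 as higher. At Pd21 none of the 12 was called by limma.

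The homeobox genes Evx1, which lies beside HoxA, and Gbx2 were the 2 of their list that passed the filter. Evx1 was at 0.0717 ± 0.0199 and 1.24 ± 0.966 FPKM at Pd3 (log2 fold change 0.96, SE 0.32, limma adjusted p = 0.15), and Gbx2 at 0.780 ± 0.129 and 3.90 ± 2.25 FPKM (log2 fold change 1.34, SE 0.35, limma adjusted p = 0.0928). Both were called as higher in F1-HHcy on the first 2 days and not at Pd21. Leaving out 1 library at a time, Gbx2 was called each time at Pd3, while the calls of Evx1 on both days and of Gbx2 at Pd7 were lost without 1 or another library, as were those of Crabp2, Rdh10, Rarb, Meis2, Pbx4 and Cbx6. Of the noncoding RNAs of the Hox clusters, 3 passed the filter, Hoxb3os, Hotairm1 and Mira, and none was called between the diets on any day by limma. Mira was at 6.15 ± 0.991 FPKM in F1-Control at Pd21, its highest group.

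Of 13 genes known from the Müllerian duct 7 passed the filter, and Pax8, an epithelial factor of the duct that is also on the oviduct secretory list, was the only one called between the diets. It went from 3.18 ± 1.00 to 1.02 ± 0.377 FPKM at Pd7 (log2 fold change -1.04, SE 0.21, limma adjusted p = 0.0189) and from 7.82 ± 4.61 to 0.553 ± 0.181 FPKM at Pd21 (log2 fold change -2.36, SE 0.38, limma adjusted p = 0.0183).

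Several members overlap in the annotation, and how the authors' counting treated strand and overlap is not given in the sources used here. Hoxd4 lies within Hoxd3, Hoxb4 within Hoxb3, and Hoxa4, Hoxa5 and Hoxa6 within Hoxa3, while Hoxd10 (chr2:74684273-74695106) and Hoxd11 overlap in part. Values of these members are uncertain to the extent that shared fragments were given to one or the other. Fold changes of the HoxA and HoxB genes, most of them near 1 FPKM, are understated on the log2(FPKM + 1) scale.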

How the data were processed

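The labels describe stranded poly-A libraries of whole ovaries. The submitters' processing notes name FastQC 0.11.9, Trimmomatic 0.39, STAR 2.7.9a and featureCounts 2.0.1 with GRCm38, and the paper's text names a sequencing company. The authors deposited 1 linear value per symbol and library with no unit named, read here as FPKM: a whole-number length per gene turned the values of 99.989% of 27294 genes into whole fragments (within 0.02), which also gave the depth.

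Groups were taken from the labels. Fits used limma 3.58.1 in R 4.3.3 with a mean-variance trend on log2(FPKM + 1): the 6 libraries of a comparison, or all 18 for changes of the diet difference, with genes at 1 FPKM or more in 3 of 18 libraries (14607 of 30172). The call used the thresholds that head the study's volcano plots, applied here to limma. Leaving out each library for the other lists was added after the data were seen. Figures were drawn with Python 3.11.15 and matplotlib 3.10.9. Promoters came from RefSeq (GRCm38.p6).

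Named with full values were members called between diets, the 2 most abundant of each cluster, the 5 with the smallest p for Pd7 against Pd3 in F1-Control, and those with an adjusted p under 0.05 for a change of the diet difference. Of each other list with a call, the rule took the 3 genes with the smallest p; some are given only as counts. Hoxb8, Hoxc9 and the genes near the filter were named after their values were seen. The values of 1 member are not reported here. Members and lists were chosen with earlier results of these data known. Alternatives are given in the closing section. For Pd7 against Pd3 in F1-Control, the deviations of same-numbered libraries from their group means correlated weakly over genes (0.12, 0.24 and 0.26). Libraries of different numbers were not compared, so this does not settle whether the numbers pair the libraries. The replicate block left both calls of this comparison.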

Additional observations from a re-analysis of the deposited data

Results flagged for a closer look

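The diet difference of Hoxb2 changed between Pd3 and Pd21 by -1.08 on the log2 scale (SE 0.29, limma adjusted p = 0.0442) and between Pd7 and Pd21 by -1.16 (SE 0.29, limma adjusted p = 0.0349). For Hoxb7 the change between Pd3 and Pd21 was -0.91 (SE 0.25, limma adjusted p = 0.0467). Each was picked out because the difference of the diet differences itself passed the adjusted threshold. Of all genes, 4.59% passed it together with the fold of the call from Pd3 to Pd21, and 3.87% from Pd7 to Pd21. The call of Hoxb7 between the diets at Pd21 was lost without F1-Control Pd21 replicate 3. Hoxb2 was at 0.811 ± 0.116 FPKM in F1-Control and 1.151 ± 0.343 FPKM in F1-HHcy at Pd3, and at 3.10 ± 0.949 and 1.30 ± 0.707 FPKM at Pd21 (SD, n = 3). Age and batch cannot be told apart in these changes.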

How the results depend on the processing

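With an adjusted p under 0.05 as threshold, limma called 0 members between the diets at Pd3, Pd7 and Pd21, 0 between days in F1-HHcy, 0 for the change of the diet difference from Pd3 to Pd7, 2 from Pd3 to Pd21 and 1 from Pd7 to Pd21. With all 18 libraries in 1 model, 1 member (Hoxc6) was called between the diets at Pd7 and 0 between days in F1-HHcy. A pseudocount of 0.1 or median-ratio scaling gave 2 members, Hoxb7 and Hoxd10, for the change from Pd3 to Pd7. Leaving out 1 library at a time gave 0 to 3 calls between the diets at Pd3, 0 to 4 at Pd7 and 4 to 9 at Pd21, 1 to 3 between days in F1-Control and 0 to 2 in F1-HHcy, and 0 to 2, 4 to 12 and 3 to 12 for the changes from Pd3 to Pd7, Pd3 to Pd21 and Pd7 to Pd21; where this leaves 2 libraries, fewer samples were fitted. Signs turned in these leave-outs at Pd3 for Hoxb9 (log2 fold changes from -0.10 without F1-Control replicate 1 to 0.37) and Hoxa4 (-0.11 without F1-HHcy replicate 3 and -0.0076 without F1-Control replicate 3, to 0.19), at Pd7 for Hoxb9 (-0.14 without F1-Control replicate 2, to 0.39) and Hoxa4 (-0.0041 without F1-HHcy replicate 1, to 0.26), and at Pd21 for Hoxd9 (-0.40 to 0.17 without F1-HHcy replicate 2, and 0.016 without F1-Control replicate 1) and Hoxc6 (-0.59 to 0.089 without F1-HHcy replicate 2); with all libraries none of these was called. The share of all genes called in each leave-out is not given here, so these counts stand without a background. The causes were not tested.

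Outside the F1-Control comparison of days, the correlations of same-numbered libraries were -0.31 to 0.12. With the replicate number as a block, counts of calls were 1, 3 and 5 between the diets, 2 and 2 between days, and 1, 8 and 4 for the changes, so that Hoxb4 was lost from Pd3 to Pd21 and Hoxc6 gained from Pd7 to Pd21; no call between the diets or days changed. No filter on low values, limma-voom on recovered fragments, values without mitochondrial and hemoglobin genes and, for the comparisons it applies to, a filter over the 6 libraries kept each count within 1.5 times. Hoxc10 at Pd21 and Hoxd4 at Pd7 were not called without a filter, and Hoxb5 at Pd21 was not tested with the filter over the 6 libraries. Several members under 1 FPKM rest on few fragments. Among the members with statistics the fewest were 8, for Hoxb5 in F1-HHcy Pd21 replicate 2. Hoxb3, also under 1 FPKM in the mean, had 101 to 440 fragments.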
